A study of Homo sapiens with 4 samples.

Results

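The BCL2 family sets the threshold at which a cell commits to mitochondrial apoptosis, and the results below give the transcript level of 10 of its genes in HAP1 cells with and without BAP1. The 10 members were fixed by name and looked up by gene symbol among the 57820 genes of the count files, where all 10 were found. They are the anti-apoptotic guardians BCL2, BCL2L1 (BCL-XL), MCL1 and BCL2L2 (BCL-W), the pore-forming effectors BAX and BAK1, and the BH3-only activators and sensitisers BCL2L11 (BIM), PMAIP1 (NOXA), BBC3 (PUMA) and BID.

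The libraries are stranded, polyadenylated RNA-seq of untreated HAP1, a near-haploid human line derived from a chronic myeloid leukaemia. The dKO group (2 libraries) carries knockouts of RING1A and RING1B, the enzymes with which the Polycomb complex PRC1 attaches ubiquitin to histone H2A. The tKO group (2 libraries) carries the same knockouts and a further one of BAP1, the deubiquitinase that removes this mark. By design both groups lack PRC1 activity, and the comparison of tKO with dKO addresses whether BAP1 loss alters these genes when the mark is already absent. BAP1 and RING1A were disrupted by an inserted STOP cassette in selected clones, RING1B knockout cells came from a supplier, and whether the libraries of a genotype came from separate clones is not given in the sources used here. The libraries are described as biological replicates, and wild-type cells were not analysed here.

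Guardians hold effectors and activators in a hydrophobic groove. BH3-only proteins fill that groove or engage BAX and BAK1 directly, after which the effectors oligomerise in the outer mitochondrial membrane, cytochrome c is released and caspases are activated. MCL1 and PMAIP1 are short-lived proteins, BBC3, PMAIP1 and BAX are classical p53 target genes, and BCL2L11 is a FOXO target. A transcript count does not show protein level, cleavage (as for BID) or splice form (as for BCL2L1 and MCL1), all of which govern this family.

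Libraries held between 16054590 and 18455410 counts in genes, and the floor of 3 counts corresponded to at most 0.187 CPM, the count scaled to its library's total. BAP1 had 111 and 112 CPM in dKO against 9.63 and 6.66 CPM in tKO, which is the direction the labels give (log2 fold change -3.77, limma adjusted p = 0.0065, a call lost when either dKO library was left out). RING1, the gene of RING1A, had 12 to 17 counts in every library. RNF2, the gene of RING1B, had 1102 to 1561 counts, so a transcript of RNF2 was still present in both genotypes. Such counts do not show whether RING1B protein is made. By western blot, the paper reports that ubiquitin on histone H2A at the PRC1 site was absent in both genotypes. In tKO 2 the tested genes in the first 57 Mb of chromosome 3 had a median log2 ratio to dKO of -0.92, and in tKO 1 those in the first 39 Mb of chromosome 10 had a median of -0.97. None of the members lies in either stretch. BAP1 lies in that of chromosome 3, and its log2 fold change without tKO 2 was -3.50. Of 8 haematopoietic markers, 3 (TAL1, MYB and LMO2) were above 3 counts in all 4 libraries and SPI1 and GATA1 were at 0. The 6 adherent-cell markers were above that level throughout, with a summed level of 945 to 958 CPM in dKO and 596 to 922 CPM in tKO. The lowest sum, 596 CPM in tKO 1, went with VIM and ITGB1, which lie in the chromosome 10 stretch and summed to 355 CPM in tKO 1 against 660 to 704 CPM in the other libraries. The other 4 markers summed to 241 CPM in tKO 1, beside 254 to 262 CPM elsewhere. In bulk RNA, fewer cells with a transcript and less of it per cell cannot be told apart.

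The feature that joins all members is the BH3 motif, the short helix by which one member docks into the groove of another. Its coding sequence is shown for each member, read from the canonical transcript of GENCODE release 44 on GRCh37, as 33 coding bases written 5′ to 3′. The capitals mark 3 codons, which are that of the conserved leucine, that of the small residue (glycine or alanine) 4 codons further on, and that of the aspartate next to it.
BCL2: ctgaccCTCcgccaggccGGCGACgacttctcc
BCL2L1: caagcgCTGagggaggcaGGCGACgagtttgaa
MCL1: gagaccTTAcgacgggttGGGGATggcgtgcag
BCL2L2: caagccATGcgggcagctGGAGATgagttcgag
BAX: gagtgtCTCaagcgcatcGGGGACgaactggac
BAK1: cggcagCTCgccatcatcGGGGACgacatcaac
BCL2L11: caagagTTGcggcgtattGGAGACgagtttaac
PMAIP1: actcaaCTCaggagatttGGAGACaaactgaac
BBC3: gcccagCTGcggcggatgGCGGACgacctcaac
BID: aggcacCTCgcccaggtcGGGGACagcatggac

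A search of the translated coding sequences for leucine, any 3 residues, glycine or alanine, and aspartate found this core once in 9 of the 10 members. In BCL2L2 the first position is a methionine codon, and the core was found once when methionine was allowed. The core is short and occurs in 25.3% of 18753 canonical coding sequences, so its presence alone is not particular to the family. BBC3 was the member with alanine at the small position. A second motif, the run of asparagine, tryptophan, glycine and arginine codons in the BH1 region, was found in 6 members, all 4 guardians and both effectors, and in none of the BH3-only members. That run occurs in 0.107% of coding sequences. On GRCh37 the stretches shown lie, for the guardians, in BCL2 at chr18:60985585-60985617 (minus strand), BCL2L1 at chr20:30309728-30309760 (minus strand), MCL1 at chr1:150551344-150551376 (minus strand) and BCL2L2 at chr14:23777106-23777138 (plus strand). For the effectors they lie in BAX at chr19:49459038-49459070 (plus strand) and BAK1 at chr6:33543167-33543199 (minus strand). For the BH3-only genes they lie in BCL2L11 at chr2:111907674-111907706 (plus strand), PMAIP1 at chr18:57569899-57569931 (plus strand), BBC3 at chr19:47729839-47729871 (minus strand) and BID at chr22:18222184-18222216 (minus strand). Each is coding sequence within a single exon.

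On GRCh37 the guardian genes are BCL2 (ENSG00000171791.10) at chr18:60790579-60987361, BCL2L1 (ENSG00000171552.8) at chr20:30252255-30311792, MCL1 (ENSG00000143384.8) at chr1:150533371-150552214 and BCL2L2 (ENSG00000129473.5) at chr14:23767999-23780960. The effector genes are BAX (ENSG00000087088.15) at chr19:49458072-49465055 and BAK1 (ENSG00000030110.8) at chr6:33540324-33548070. The BH3-only genes are BCL2L11 (ENSG00000153094.17) at chr2:111876955-111926021, PMAIP1 (ENSG00000141682.11) at chr18:57567228-57571537, BBC3 (ENSG00000105327.11) at chr19:47724079-47736023 and BID (ENSG00000015475.14) at chr22:18216904-18257536.

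Across both genotypes all 10 members passed the filter of 0.5 CPM in at least 2 libraries, and MCL1 was the most abundant. Levels are compared between genes as CPM per kb of annotated exon, averaged over the 4 libraries. MCL1 had 32.7 ± 2.48 CPM per kb (SD, n = 4) and BAX had 24.3 ± 0.955 CPM per kb (SD, n = 4), and the ranges of this pair overlapped neither each other nor that of any other member. PMAIP1 followed with 11.4 ± 1.90 and BCL2L1 with 10.3 ± 0.691 CPM per kb, with overlapping ranges. BAK1 (8.11 ± 0.951) and BCL2L2 (7.72 ± 0.520 CPM per kb) overlapped as well. BID (5.94 ± 0.454) and BCL2L11 (4.43 ± 0.419 CPM per kb) each stood apart from their neighbours. BBC3 (2.36 ± 0.626) and BCL2 (1.82 ± 0.106 CPM per kb) had the lowest levels, with overlapping ranges. Among the 15136 tested genes, MCL1 stood at the 91.4th percentile of this level, BAX at the 87.7th and BCL2 at the 27.7th.

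**Figure D1:**
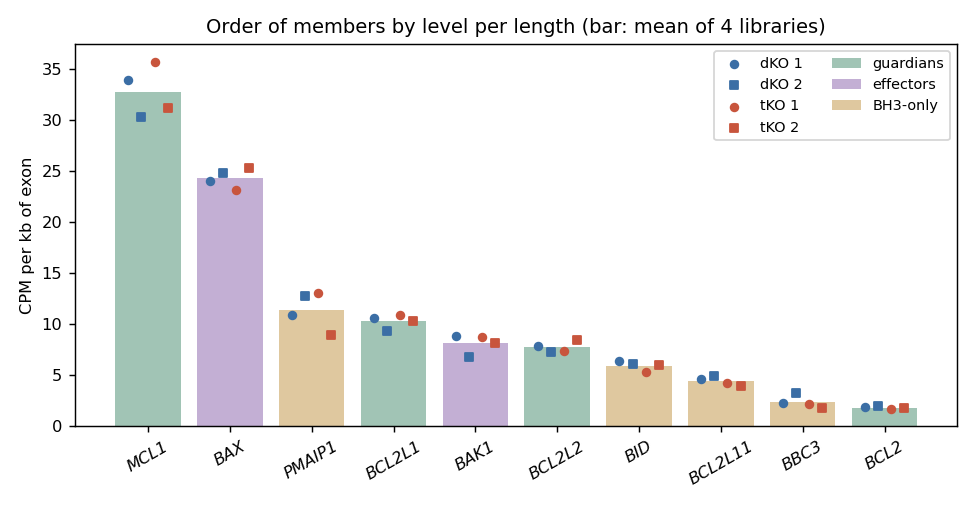
Level of each member in CPM per kb of exon on the vertical axis, ordered by the mean of 4 libraries (bars, coloured by class); circles and squares are libraries 1 and 2, blue for dKO and red for tKO. MCL1 and BAX stand above the others at 32.7 and 24.3 CPM per kb, and BCL2 is lowest at 1.82.

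The order depends partly on the length used. With the longest coding transcript in place of all annotated exons, MCL1 and BAX stayed first and second and BCL2L11, BBC3 and BCL2 stayed last, while BCL2L1 passed PMAIP1, and BID and BCL2L2 passed BAK1, with BID ahead. Reads that fall on exons of more than one gene of the same strand were not counted for either. BCL2L2 shares 815 of its 4840 exon bases (16.8%) with the readthrough gene BCL2L2-PABPN1, which had between 8 and 11 counts per library. The level of BCL2L2 is a lower limit where the older annotation used for counting shares these bases as well. Per kb of unshared exon BCL2L2 had 9.28 CPM, above the 8.11 of BAK1. MCL1 shares 5.27% of its exon bases with ADAMTSL4-AS1, which had 0 counts in every library.

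None of the 4 guardian transcripts passed the test between genotypes. MCL1, the guardian that binds BAK1 and BCL2L11, had 211 and 188 CPM in dKO and 222 and 194 CPM in tKO. In each genotype library 1 was above library 2, and the ranges of the genotypes overlapped (log2 fold change 0.06, 95% interval -0.22 to 0.34). BCL2L1, which guards against both effectors, had 44.6 and 39.2 CPM in dKO and 45.9 and 43.2 CPM in tKO, again with overlapping ranges (log2 fold change 0.09, interval -0.21 to 0.40). BCL2L2 had 38.0 and 35.3 CPM in dKO against 35.5 and 40.7 CPM in tKO, with overlapping ranges, the lowest library being dKO 2 and the highest tKO 2 (log2 fold change 0.06, interval -0.25 to 0.37). BCL2, the founding member, had 23.2 and 24.6 CPM in dKO and 21.3 and 22.7 CPM in tKO. Both of its tKO values were below both dKO values, by a margin smaller than the gap within either genotype, and its log2 fold change was -0.11 (interval -0.44 to 0.21). MCL1 supplied 62.2% of the summed guardian level per kb in dKO and 62.2% in tKO.

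**Figure D2:**
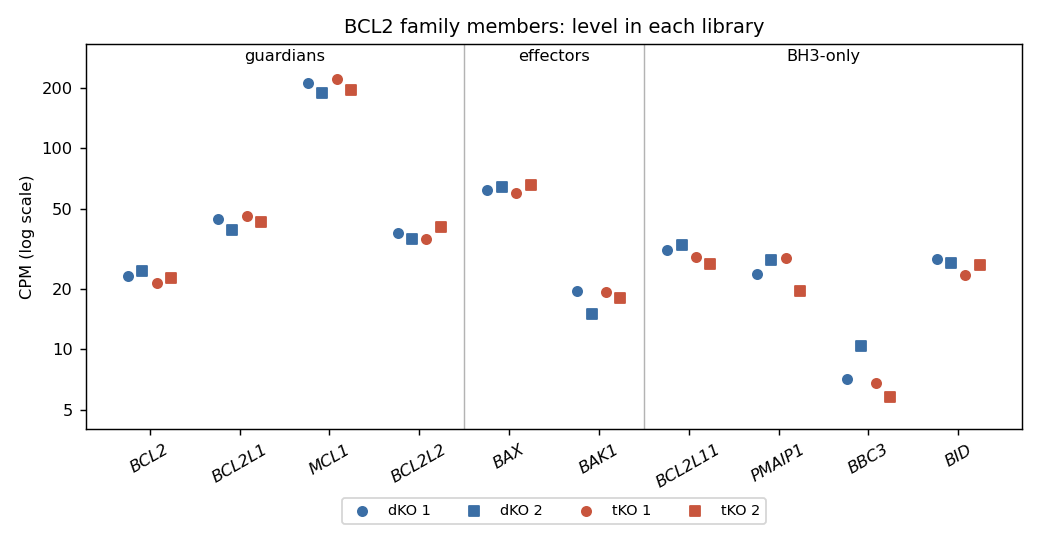
CPM of the 10 members (log axis) in each of the 4 libraries, grouped as guardians, effectors and BH3-only genes; blue is dKO, red is tKO, circles are library 1 and squares library 2. The points of a gene lie close together, and the widest gaps are in BBC3 (5.79 to 10.4 CPM) and PMAIP1 (19.6 to 28.5 CPM).

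Neither effector passed the test. BAX, which moves from the cytosol to the mitochondrial membrane, had 62.1 and 64.1 CPM in dKO and 59.8 and 65.5 CPM in tKO, with a log2 fold change of -0.0073 and a standard error of 0.11. The tKO values lay on either side of the dKO values. BAK1, which resides in that membrane, had 19.6 and 15.0 CPM in dKO and 19.3 and 18.001 CPM in tKO (log2 fold change 0.13, interval -0.32 to 0.57). Its lowest value was dKO 2, and both tKO values lay between those of dKO. Per kb of exon BAX exceeded BAK1 by a ratio of 3.19 ± 0.670 (SD, n = 2) in dKO and 2.88 ± 0.322 (SD, n = 2) in tKO, ranges that overlapped.

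All 4 BH3-only members had a negative log2 fold change, as did 7613 of the 15136 tested genes, and none was past the threshold. BBC3 had the largest difference of the 10 members, with 7.10 and 10.4 CPM in dKO and 6.82 and 5.79 CPM in tKO. These are between 93 and 187 counts per library. The values of the genotypes did not overlap, but tKO 1 was close to dKO 1, and dKO 2 stood above the other 3 libraries. The log2 fold change of BBC3 was -0.44 with a standard error of 0.25 (interval -1.04 to 0.16, unadjusted p = 0.127, limma adjusted p = 0.996), and it was -0.18 without dKO 2 and -0.70 without dKO 1. BCL2L11, an activator that all guardians bind, had 31.2 and 33.1 CPM in dKO and 28.6 and 26.7 CPM in tKO. Both tKO libraries were lower, and the log2 fold change of -0.21 had an interval of -0.52 to 0.10 (unadjusted p = 0.148, limma adjusted p = 0.996). BID, which links death receptors to mitochondria once cleaved by caspase-8, had 28.2 and 27.0 CPM in dKO and 23.5 and 26.3 CPM in tKO. Its ranges did not overlap, although tKO 2 was within 1 CPM of dKO 2 (log2 fold change -0.15, interval -0.47 to 0.18). Without tKO 1 the log2 fold change of BID was -0.075. PMAIP1, the sensitiser that targets MCL1, had 23.7 and 27.8 CPM in dKO against 28.5 and 19.6 CPM in tKO. Here the library tKO 1 was the highest and tKO 2 the lowest of the 4 libraries, and the log2 fold change of -0.12 became 0.17 without tKO 2 and -0.40 without tKO 1.

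**Figure D3:**
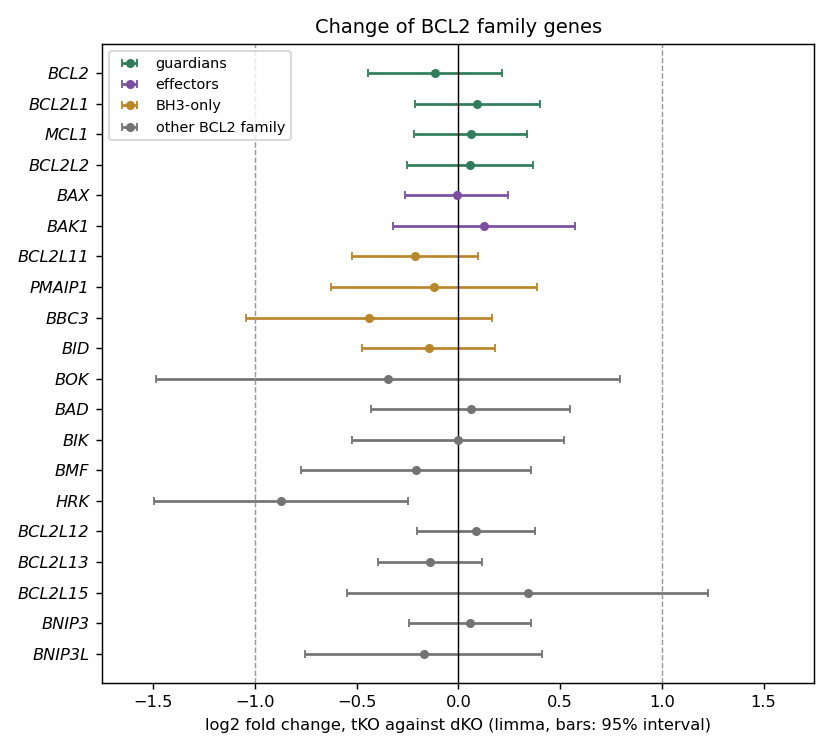
Log2 fold change of tKO against dKO with 95% limma intervals (horizontal axis) for the 10 members and the 10 other tested family genes; dashed lines mark a log2 fold change of 1 in either direction. Every interval of the members includes 0, and BBC3 alone among the members reaches past -1.

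By limma, 0 of the 10 members were past the adjusted threshold of 0.05. Of the tested genes 0.0132% passed it (2 genes, both lower in tKO, the disrupted BAP1 among them). An unadjusted limma p-value under 0.05 was reached by 0 members too, where 3.55% of the tested genes reached it, 2.15% being lower in tKO. The edgeR quasi-likelihood test, DESeq2 and limma-voom each also gave 0 members at either level. By limma on all 4 libraries, with the filter of 0.5 CPM, the smallest adjusted p-value of a member was 0.996. The median log2 fold change was 0.06 for guardians, 0.06 for effectors and -0.18 for BH3-only genes, -0.06 over all 10, and -0.0014 over all tested genes. The values of the 4 libraries did not overlap between genotypes in 4 members (BCL2, BCL2L11, BBC3 and BID), each lower in tKO, against 16.3% of all tested genes in that direction. In 0 members were both tKO values above both dKO values, against 15.1%, and in either direction the background was 31.4%. These counts are descriptive, since the members were not drawn at random and no test was made over them.

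The intervals show how large a difference these libraries leave room for. In 9 of the 10 members the 95% interval lay within a 2-fold change in either direction, against 78.3% of all tested genes, and in 8 of 10 it lay within a 1.5-fold change, against 57%. The exceptions to the 1.5-fold limit were PMAIP1 and BBC3. The tested genes reach down to the filter of 0.5 CPM, while the lowest value of a member was 5.79 CPM. These shares are therefore not matched for level and do not show that the members are unusually stable. With 2 libraries per genotype, differences within these intervals remain possible. An interval without 0 was not enough for a call after adjustment over the 15136 tested genes. HRK, a family gene outside the members, had an interval of -1.49 to -0.25 and a limma adjusted p of 0.996.

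The summed level of each class per kb overlapped between genotypes. Guardians summed to 51.5 ± 3.79 CPM per kb (SD, n = 2) in dKO and 53.6 ± 2.81 in tKO, effectors to 32.2 ± 0.943 and 32.6 ± 1.16, and BH3-only genes to 25.6 ± 2.07 and 22.7 ± 2.87. The ratio of guardians to effectors plus BH3-only genes was 0.952 and 0.834 in dKO and 0.983 and 0.954 in tKO. The tKO values were higher, but tKO 2 differed from dKO 1 by less than the libraries of either genotype differed from each other. The ratio of BAX to BCL2 per kb was 13.1 and 12.7 in dKO and 13.7 and 14.1 in tKO, ranges that did not overlap, with the higher values in tKO. Of single tested genes 31.4% had CPM ranges without overlap, in either direction, and no such share was computed for ratios of genes. BCL2 rested on 350 to 442 counts per library. No test was made on these sums and ratios.

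Differences between replicates were as large as those between genotypes for most members. The median absolute log2 ratio of library 2 to library 1 over the members was 0.16 in dKO and 0.13 in tKO, beside 0.14 and 0.20 over all tested genes. BAK1 (-0.41) and BBC3 (0.52) differed most between the dKO libraries. PMAIP1 (-0.57) differed most between the tKO libraries. In 7 of the 10 members the tKO libraries differed more than the dKO libraries did, as they did in 60.5% of all tested genes. BCL2 differed least between replicates when the larger of both ratios is taken, with log2 ratios of 0.06 in both genotypes.

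**Figure D4:**
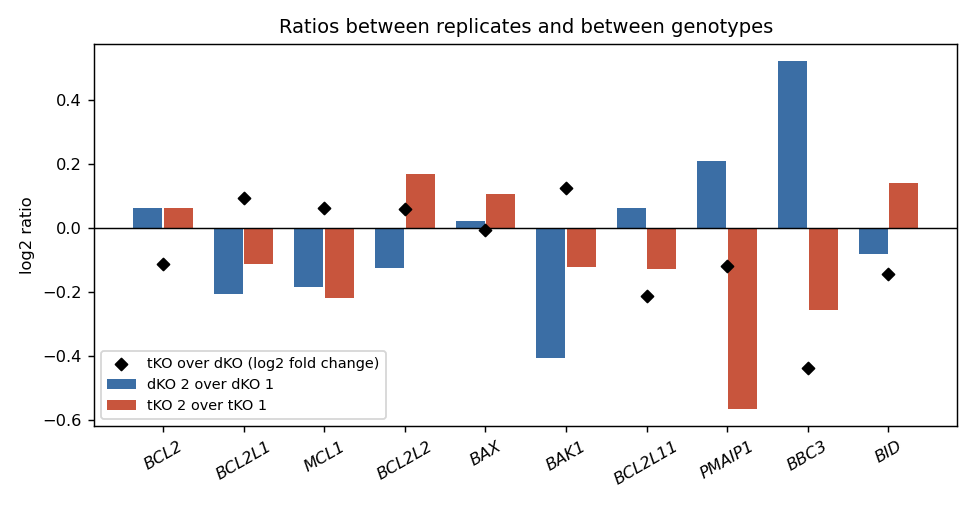
Log2 ratio of library 2 to library 1 within dKO (blue bars) and within tKO (red bars), and log2 fold change of tKO over dKO (black diamonds), for each member. The diamonds lie within the size of the bars except for BCL2, BCL2L11 and BID, where they extend to -0.11, -0.21 and -0.15.

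The likeness of other profiles was examined for BBC3, the member with the largest difference. Among 11474 other tested genes above 5 CPM, the 3 whose log2-CPM profile over the 4 libraries lay nearest, by Euclidean distance after centring, were ASS1 (distance 0.0402), PCK2 (0.0523) and SDHAF4 (0.0771). ASS1 had 20.3 and 29.1 CPM in dKO and 19.7 and 16.2 CPM in tKO. PCK2 had 31.3 and 46.1 CPM in dKO and 29.4 and 26.3 CPM in tKO. In both, as in BBC3, dKO 2 was the highest library and tKO 2 the lowest, a likeness over 4 libraries only.

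The rest of the pathway was read from 4 lists with 66 genes, of which 60 passed the filter on low counts. By limma 0 of these were past the adjusted threshold. An unadjusted limma p-value under 0.05 was reached by 5, of which 3 (HRK, CASP8 and BTG2) were lower and 2 (ATF4 and AEN) higher in tKO. Over all 15136 tested genes 3.55% reached it (538 genes). The edgeR quasi-likelihood test and DESeq2 also gave 0 with adjustment, and 5 and 4 genes without it. Over all 15136 tested genes 530 and 321 reached that unadjusted level in these 2 tests. The lists were not tested as sets. Without tKO 1 limma gave 7 list genes past the adjusted threshold, in a fit that called 8.34% of all genes tested (1246 genes). Without tKO 2 it gave 2, where 2.91% of all genes tested were called (434 genes). The choice of HRK and AEN for mention was made after their values were seen.

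Of the 13 other BCL2 family genes, 10 were tested. BCL2A1, a guardian of blood cells, had 0 counts in every library, and BCL2L10 had 3 counts in each dKO library and 0 in each tKO library. Both are at or under the floor. The median log2 fold change of the 10 was -0.07. HRK, a BH3-only gene known from neurons, had 5.96 and 5.95 CPM in dKO and 2.68 and 3.80 CPM in tKO. The log2 fold change was -0.87 and its interval -1.49 to -0.25 (unadjusted p = 0.0134, limma adjusted p = 0.996). Both tKO values were lower than both dKO values. BMF, a BH3-only protein that responds to loss of attachment, had 16.7 and 21.1 CPM in dKO and 19.7 and 13.3 CPM in tKO. BNIP3L, a mitophagy receptor, had 62.1 and 86.7 CPM in dKO and 81.3 and 52.0 CPM in tKO. In both genes tKO 2 was the lowest library and tKO 1 lay between the dKO libraries. For PMAIP1 tKO 2 was the lowest as well.

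The 16 genes of the apoptosome and caspases had a median log2 fold change of -0.02, 7 being higher and 9 lower in tKO, and 0 had an unadjusted p-value below 0.05. The largest differences above 5 CPM were those of HTRA2, a protease released from mitochondria (log2 fold change -0.21, limma adjusted p = 0.996), and ENDOG, a mitochondrial nuclease (log2 fold change 0.16, limma adjusted p = 0.996). HTRA2 had 33.6 and 40.3 CPM in dKO and 32.0 and 31.2 CPM in tKO, so that dKO 2 stood above the others, and its log2 fold change was -0.093 without dKO 2 and -0.34 without dKO 1. That of ENDOG was 0.066 without dKO 1 and 0.24 without dKO 2.

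Of 17 upstream regulators of the members, 16 were tested, and 11 were higher and 5 lower in tKO with a median log2 fold change of 0.09. CASP8, the caspase that cleaves BID, had 23.1 and 28.5 CPM in dKO and 16.5 and 18.3 CPM in tKO. Its values did not overlap, and its log2 fold change was -0.56 with an interval of -0.94 to -0.17 (unadjusted p = 0.0118, limma adjusted p = 0.996). CASP8 passed the adjusted threshold when either tKO library was left out (limma adjusted p = 0.0466 without tKO 1 and 0.0184 without tKO 2), where the lone tKO library is assumed to vary like the dKO libraries. These are the fits that called 1246 and 434 genes in all, against 2 with all 4 libraries, so nothing is read from these calls about CASP8 in particular. ATF4, a stress-response factor upstream of BBC3 and PMAIP1, had 254 and 242 CPM in dKO and 270 and 322 CPM in tKO (log2 fold change 0.25, unadjusted p = 0.0496, limma adjusted p = 0.996). Its log2 fold change was 0.14 without tKO 2 and 0.37 without tKO 1.

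Of 20 p53 targets outside the family, 18 were tested, with a median log2 fold change of 0.02, 11 being higher and 7 lower in tKO. BTG2, an antiproliferative gene, had 39.6 and 39.7 CPM in dKO and 32.2 and 26.9 CPM in tKO (log2 fold change -0.42, unadjusted p = 0.0218, limma adjusted p = 0.996). Without tKO 2 that value was -0.28 and without tKO 1 it was -0.57. FAS, a death receptor, had 7.80 and 8.17 CPM in dKO and 4.39 and 7.54 CPM in tKO (log2 fold change -0.46, limma adjusted p = 0.996). The value rested on tKO 1, being -0.091 without tKO 1 and -0.83 without tKO 2. Of all pathway genes only XPC, in this list, lies in the chromosome 3 stretch that was lower in tKO 2. Its log2 fold change was -0.35 with all 4 libraries (limma unadjusted p = 0.319). Without tKO 1 it was -0.91, a value noted after it was seen. The stretch was itself marked by its low level in tKO 2, so the value of XPC adds no separate evidence.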

How the data were processed

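Polyadenylated RNA of 4 HAP1 cultures was sequenced as stranded libraries. Per the submitters' processing notes and the study's methods, the authors trimmed reads with cutadapt (1.12) through Trim Galore (0.4.4), removed ribosomal reads with Bowtie (1.2), mapped the rest to GRCh37 and obtained raw counts per gene from uniquely mapped reads with STAR (2.5.2b). The deposited counts are not normalised and replicates were not pooled. The antisense column of each file, which is the orientation of the kit, was used.

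Symbols, positions and exon lengths came from GENCODE release 44 lifted to GRCh37 (97.5% of tested genes had a symbol). The study's methods name an older GENCODE release for the counting. Exon lengths and shared bases may differ between the releases, and with them the levels per kb, their order and their percentiles. Genes above 0.5 CPM in at least 2 libraries were tested. Counts were turned into log2-CPM with TMM factors and a prior count of 2 in edgeR (4.0.16), and genotype was fitted with limma (3.58.1, mean-variance trend) in R (4.3.3) over all tested genes with Benjamini-Hochberg adjustment. A call is an adjusted p-value below 0.05. The fold change scale understates changes of genes with few counts. The filter, TMM and limma follow the study's methods.

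All members were named, as were BAP1, every list gene past the threshold, the 2 genes of each list with the largest absolute log2 fold change above 5 CPM, the 3 nearest profiles of the member with the largest change, and genes sharing sense exons with a member. RING1 and RNF2 are also in the set. The members and lists were chosen with earlier results of these data known. Alternatives were edgeR's quasi-likelihood test, DESeq2 (1.42.0), limma-voom, no trend, other scalings, filters, prior count and count column, a replicate block, and leaving out each replicate. The fit was tested on simulated data. Floors cover counting error only.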

Additional observations from a re-analysis of the deposited data

Results flagged for a closer look

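Reads on the strand opposite to a member, which the comparisons above do not use, were above the floor of 3 counts in all 4 libraries for MCL1, BCL2L2 and BID. They numbered 23 for MCL1, 99 for BCL2L2 and 72 for BID over the 4 libraries, or 0.164%, 3.71% and 3.82% of the stranded reads of these genes, and they are listed here as a signal outside the measurement used. Over all genes the opposite strand took between 4.01% and 4.24% of the stranded reads of a library. BCL2L2 shares 6.51% of its exon bases with PPP1R3E on the opposite strand and MCL1 shares 0.691% with ADAMTSL4. Whether these neighbours give the reads was not tested.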

How the results depend on the processing

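The number of members past the adjusted threshold was 0 under each of the 16 alternatives, and the median log2 fold change of the members stayed between -0.07 and -0.04. Single members moved further. With 1 library left out in turn, BBC3 ran from -0.70 to -0.18 and PMAIP1 from -0.40 to 0.17. The number of pathway genes past the threshold was 0 except in the 2 fits that left out a tKO library, and over the 4 fits with 1 library left out it ran from 0 to 7. Without tKO 1 the 7 were BNIP3L, ATF4, USP9X, CASP8, BTG2, AEN and XPC, and without tKO 2 the 2 were HRK and CASP8, genes named after these values were seen. Those fits rest on the spread of the dKO libraries and called 1246 (8.34%) and 434 (2.91%) of all genes tested, so passing in them is not particular to these genes. The replicate numbers could not be shown to pair the libraries, since over genes the deviations of same-numbered libraries correlated at only 0.0581. A replicate block left 0 members and 0 pathway genes past the threshold, with 13 calls over all genes against 2. The crossed block, chosen after seeing the data, gave 0, 0 and 3 calls. DESeq2 gave 28 calls over all genes, no filter 0 and the edgeR quasi-likelihood test 1.

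Of the genes that were disrupted, BAP1 lost its call without the trend, with no filter and without either dKO library, at log2 fold changes of -3.77 to -3.78. With 1 library left out in turn, small differences turned direction. Log2 fold changes then ran from -0.0096 to 0.19 for BCL2L1, from -0.049 to 0.17 for MCL1, from -0.027 to 0.14 for BCL2L2, from -0.060 to 0.045 for BAX, from -0.078 to 0.32 for BAK1 and from -0.40 to 0.17 for PMAIP1. They ran from -0.51 to 0.088 for BMF, from -0.50 to 0.16 for BNIP3L and from -0.25 to 0.20 for RING1. With unstranded counts ENDOG was at -0.037. BCL2, BCL2L11, BBC3 and BID kept a negative log2 fold change in every fit. In these members both tKO values were below both dKO values, as in 16.3% of all tested genes. Leaving out 1 library could then hardly turn the direction, so nothing is read from this about these members. For the shifts between fits the cause was not tested. MCL1 made up 29.98% of the summed member level per kb, and between 29.4% and 31.0% under the alternatives. Depth limits BBC3 most among the members, at 93 to 187 counts per library.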
